A study of Mus musculus with 21 samples.

Results

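Tyr, Tyrp1, Dct, Pmel, Gpr143, Mlph, Myo5a and Oca2 encode enzymes, matrix, membrane and transport proteins of the melanosome, the organelle in which pigment cells make and store melanin. These 8 genes were chosen by name with earlier results of these data known. Shares of all probe sets beside their counts are therefore a scale and not a test. Every probe set annotated to only 1 of the 8 genes was followed, whatever its values. That gave 12 of the 10833 probe sets with a single gene, or 8 of 8251 genes: 4 probe sets for Tyrp1, 2 for Myo5a and 1 for each of the other genes. Pmel is listed under its older symbol, Si, in the array annotation.

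RNA was taken from B16-F10, an established pigmented melanoma line of C57BL/6J mice, and hybridised to 21 Affymetrix U74Av2 arrays. In the sealed chamber set 2 control arrays came from cells at 21% oxygen and 3 arrays from cells held for 24 h at 1% oxygen. Experiments 1 and 2 used a flow-regulated incubator, each with 2 controls at 21% oxygen and 3 arrays after 24 h at 1% oxygen. Experiment 3 held 2 controls at 21% oxygen, 2 arrays after 24 h with 100 µM cobalt chloride (CoCl2) and 2 after 24 h with 200 µM CoCl2. CoCl2 is a salt used to mimic hypoxia, and all 9 groups are the same line in culture, so each speaks for 1 cell line only. The time for which controls were kept is not given in the labels.

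In a melanosome, tyrosinase (Tyr) oxidises tyrosine at the start of melanin synthesis, and dopachrome tautomerase (Dct) and tyrosinase-related protein 1 (Tyrp1) act further along the eumelanin branch. Pmel is cleaved into the amyloid fibrils on which melanin is laid down, Gpr143 is a receptor of the melanosome membrane that bears on melanosome number and size, and Oca2 is a transporter-like membrane protein that bears on melanosomal pH. Ripe melanosomes are carried along actin by the motor myosin Va (Myo5a), which melanophilin (Mlph) links to Rab27a on the organelle. Many genes of this group are known targets of MITF, a transcription factor of the melanocyte lineage that binds CATGTG and CACGTG.

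The stretches of promoter that carry these motifs are shown for the genes on which the results turn. Windows from 250 bases before to 50 bases after the transcription start, from RefSeq on GRCm38.p6, were matched for 6 of the 8 genes (Tyr, Tyrp1, Dct, Mlph, Myo5a and Oca2), and Pmel and Gpr143 were not matched. Each line is 60 bases of the sense strand, 5′ to 3′, upstream of the start, and capitals mark the motif. The regions are chr7:87493513-87493572 on the minus strand for Tyr, chr4:80834140-80834199 on the plus strand for Tyrp1, chr14:118052364-118052423 on the minus strand for Dct and chr1:90915025-90915084 on the plus strand for Mlph.
Tyr: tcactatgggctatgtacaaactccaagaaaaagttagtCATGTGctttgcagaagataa
Tyrp1: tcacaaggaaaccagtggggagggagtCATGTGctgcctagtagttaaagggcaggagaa
Dct: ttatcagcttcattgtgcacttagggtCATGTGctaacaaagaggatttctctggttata
Mlph: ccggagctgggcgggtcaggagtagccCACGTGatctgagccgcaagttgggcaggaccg

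The 3 enzyme genes carried CATGTG at different distances, its first base at -21 from the start in Tyr, -46 in Tyrp1 and -150 in Dct. Dct held a second CATGTG on the other strand at -232, and Oca2 held 1 on that strand at -186. Mlph held no CATGTG in its window and the palindrome CACGTG at -48. ACGTG, a form of the core of the hypoxia response element, which CACGTG contains, lay in Mlph at -85 as well as within the palindrome, and in Oca2 at -223. Other forms of that core were not searched for. The Tyr, Tyrp1 and Dct windows held no ACGTG, and the Myo5a window held none of the 3 motifs. Searched on both strands, CATGTG occurred in 14.2%, CACGTG in 7.2% and ACGTG in 19.6% of the 32851 mouse promoter windows of this length. A match describes the letters of a window and is neither a measured binding site nor a cause.

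Array values are the deposited log2 RMA values, with array medians between 5.44 and 5.53, and a difference of 1 log2 unit is a factor of 2. The hypoxia markers Vegfa, Slc2a1, Bnip3 and Adm rose in 4 of 4 cases in each of the 5 treatments, with hypoxia means from 2.38 to 2.76. Arrays of a group correlated between 0.992 and 0.998 across probe sets, except the pairs at 100 µM (0.980) and 200 µM CoCl2 (0.986). RNA integrity, read as the 3′ minus 5′ control signal of Actb, lay at 0.15 to 0.50 across the chamber, experiment 1 and experiment 2. The experiment 3 controls gave 1.41 and 1.62, the 100 µM arrays 2.16 and 2.36, and the 200 µM arrays 0.50 and 1.47. The Gapdh signals gave 0.07 to 0.52 in the hypoxia sets, then 0.92 and 2.21 for experiment 3 controls, 1.44 and 2.18 for 100 µM, and 0.12 and 0.45 for 200 µM. In controls the melanocyte markers Tyr (6.94 to 8.04), Tyrp1 by probe set 97954_at (10.8 to 11.4), Dct (11.6 to 11.9) and Pmel (12.3 to 12.6) all lay above the array medians. Precision is limited by 2 or 3 arrays a group, and the labels call these biological replicates without saying that they were grown separately, so a p-value here covers array-to-array spread, which may be technical.

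The response of the 8 genes split by treatment. At 1% oxygen Gpr143 fell by 0.95 and Mlph fell by 0.96 on average, each in all 3 sets. Pmel (-0.24) and Oca2 (-0.29) changed less, and both were called lower for the mean of the sets. Tyr, Tyrp1 and Dct stayed within 0.08 of their controls on average by the brightest probe set. With CoCl2 every one of the 8 genes fell at both doses by at least 1 probe set, and at 200 µM the change was -3.72 for Tyrp1, -3.66 for Dct and -3.32 for Tyr. The Myo5a call at 100 µM rested on 1 of its 2 probe sets and was lost under several alternative settings. A probe set was called changed where limma's p, adjusted by Benjamini-Hochberg over all 10833 probe sets, was under 0.05. In a bulk sample a loss of cells of a kind and a loss of RNA per cell cannot be told apart.

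**Figure D1:**
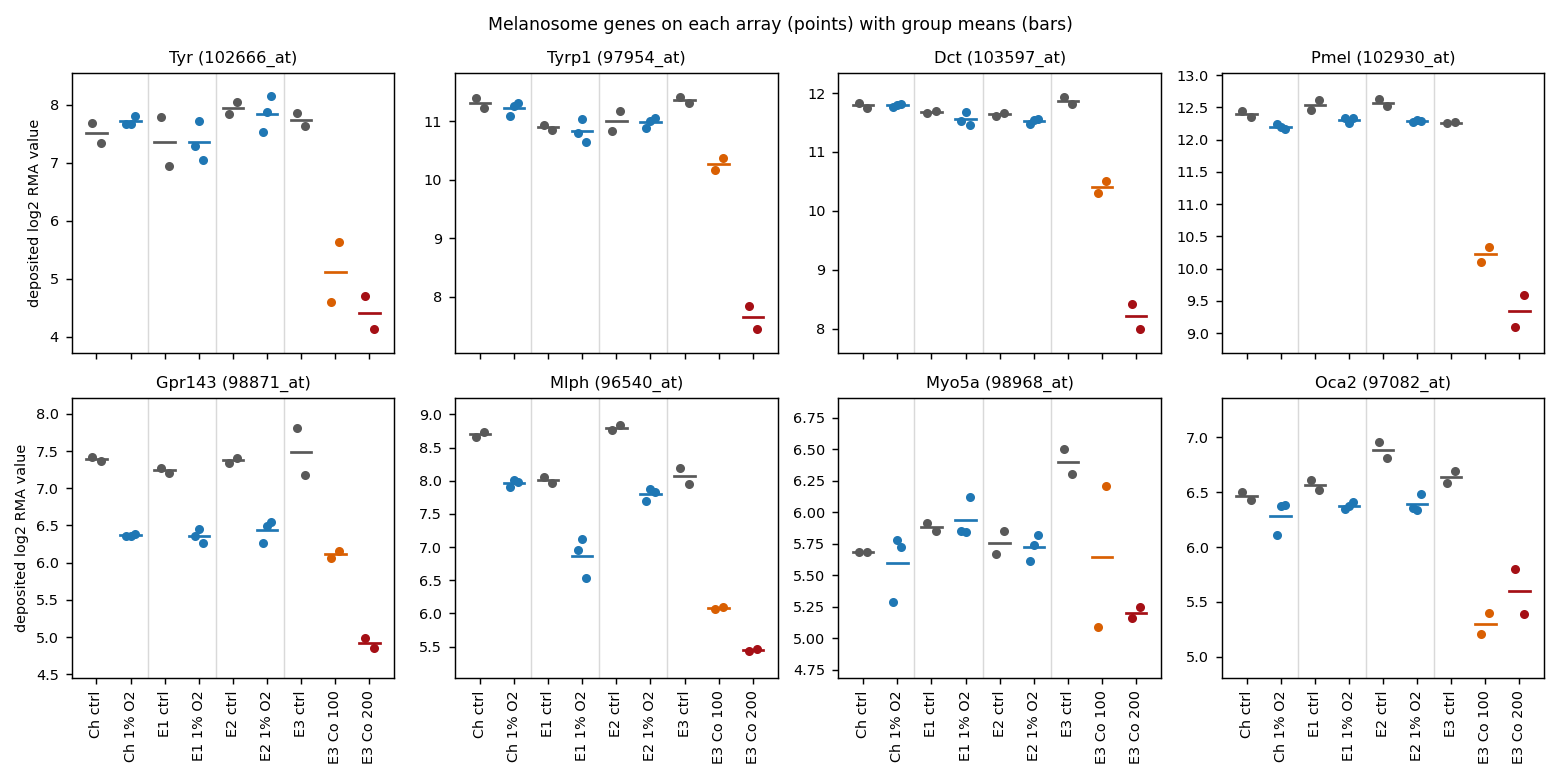
Deposited log2 RMA value (vertical axis) of 1 probe set for each of the 8 genes on each of the 21 arrays (points), with group means as bars. Groups on the horizontal axis are the chamber set (Ch), experiments 1 and 2 (E1, E2) and experiment 3 (E3), with controls in grey, 1% oxygen in blue, 100 µM CoCl2 in orange and 200 µM CoCl2 in red. Tyr, Tyrp1 and Dct are called lower only in the CoCl2 columns. Gpr143, Mlph, Pmel and Oca2 lie below their own controls in every treated group, and of these Gpr143 and Mlph alone are called lower in each. The share of all probe sets separated in this way was not computed, so the separation is a description only.

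The first comparison asked what 24 h at 1% oxygen did to these genes. In the chamber 2 of the 12 probe sets fell and none rose, beside 12.5% of all probe sets lower and 6.56% higher. In experiment 1 the count was 2 lower, beside 9.18% lower and 6.76% higher among all probe sets, and in experiment 2 it was 3 lower, beside 6.58% and 6.42%. For the mean of the 3 sets, each weighted equally, 4 of 12 fell, beside 16.8% lower and 11.2% higher of all probe sets. No member probe set rose at an unadjusted p under 0.05 either (0 of 12 in each of these 4 comparisons). The median change of the 12 was -0.07 for the mean, against 0.01 for all probe sets.

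Among the enzymes, Tyr read 7.69 and 7.34 in the chamber controls and 7.67, 7.67 and 7.81 at 1% oxygen. It read 7.79 and 6.94 in the controls of experiment 1 and 7.29, 7.72 and 7.04 at 1% oxygen, and 7.84 and 8.04 in those of experiment 2 and 7.52, 7.87 and 8.14 at 1% oxygen. Hypoxic and control arrays overlapped in all 3 sets. The mean change was 0.03 ± 0.16 (SE; adjusted p = 0.93 by limma), with a 95% interval from -0.30 to 0.36.

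Tyrp1, by probe set 97954_at, read 11.39 and 11.24 in the chamber controls and 11.10, 11.27 and 11.32 at 1% oxygen. It read 10.94 and 10.85 against 10.80, 11.04 and 10.65 in experiment 1, and 10.84 and 11.18 against 10.89, 11.01 and 11.06 in experiment 2. Controls and hypoxic arrays overlapped in each set, and the mean change was -0.06 ± 0.08 (adjusted p = 0.69), with an interval from -0.23 to 0.11. Tyrp1 97955_at read 10.44 and 9.81 in the chamber controls against 10.05, 9.77 and 9.97, 10.05 and 9.44 against 10.07, 10.36 and 9.69 in experiment 1, and 10.32 and 10.32 against 9.74, 10.23 and 10.27 in experiment 2. Only in experiment 2 did its hypoxic arrays all lie below the controls, and its mean change was -0.05 (adjusted p = 0.88). Tyrp1 97956_g_at read 10.04 to 10.89 over the 9 hypoxic arrays, a range that its 6 own controls (10.14 to 10.65) overlapped, with a mean change of 0.02 (adjusted p = 0.94). The dim Tyrp1 161538_r_at gave 0.16 (adjusted p = 0.30).

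Dct read 11.83 and 11.75 in the chamber controls and 11.76, 11.80 and 11.82 at 1% oxygen, and 11.66 and 11.69 in the controls of experiment 1 against 11.53, 11.69 and 11.45. In experiment 2 its hypoxic arrays (11.48, 11.54 and 11.56) all lay below the controls (11.61 and 11.67), by a margin that did not pass. The mean change was -0.08 ± 0.07 (adjusted p = 0.50), with an interval from -0.22 to 0.07.

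Pmel, the fibril protein, read 12.45 and 12.35 in the chamber controls and 12.25, 12.19 and 12.17 at 1% oxygen. It read 12.47 and 12.61 against 12.33, 12.27 and 12.34 in experiment 1, and 12.63 and 12.52 against 12.28, 12.30 and 12.29 in experiment 2. All 9 hypoxic arrays were below both controls of their own set, although no single set passed (adjusted p = 0.26, 0.24 and 0.15). Of all the alternative settings tried, each set passed under only 1, and it was a different setting each time. These were array weights in the chamber (adjusted p = 0.029), the Actb covariate in experiment 1 (adjusted p = 0.034) and quantile normalisation in experiment 2 (adjusted p = 0.039). No setting gave Pmel a call in more than 1 set. The mean over the sets fell by 0.24 ± 0.07 (adjusted p = 0.012), a factor of 1.18, and with the replicate number as a block that call was lost (adjusted p = 0.061).

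Of the membrane proteins, Gpr143 read 7.42 and 7.36 in the chamber controls and 6.36, 6.35 and 6.38 at 1% oxygen. It read 7.28 and 7.20 against 6.35, 6.45 and 6.26 in experiment 1, and 7.34 and 7.41 against 6.27, 6.49 and 6.54 in experiment 2. Every hypoxic array lay below every control array of the 3 sets. The change was -1.03 ± 0.14 in the chamber (adjusted p = 1.3e-05), -0.89 in experiment 1 (adjusted p = 8.6e-05) and -0.94 in experiment 2 (adjusted p = 4.5e-05). The mean change was -0.95 ± 0.08 (adjusted p = 5.3e-09), a factor of 1.93.

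Oca2 read 6.50 and 6.43 in the chamber controls against 6.11, 6.38 and 6.38, 6.61 and 6.52 against 6.35, 6.38 and 6.41 in experiment 1, and 6.96 and 6.81 against 6.36, 6.34 and 6.48 in experiment 2. All hypoxic arrays were below their own controls, and the widest gap was in experiment 2, whose controls were the highest of the study. The mean change was -0.29 ± 0.07 (adjusted p = 0.0032), and only experiment 2 passed by itself, where Oca2 fell by 0.49 (adjusted p = 0.0073). That call was lost with the replicate number as a block (adjusted p = 0.059) and without the first control of experiment 2 (-0.42, adjusted p = 0.13).

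Of the transport proteins, Mlph read 8.66 and 8.74 in the chamber controls and 7.91, 8.01 and 7.98 at 1% oxygen. It read 8.06 and 7.96 against 6.96, 7.12 and 6.53 in experiment 1, and 8.76 and 8.84 against 7.69, 7.87 and 7.83 in experiment 2. Hypoxic arrays lay below both of their own controls in each set, but the controls of experiment 1 stood where the hypoxic arrays of the chamber did, so the level is readable only against the controls of the same set. The change was -0.73 ± 0.13 in the chamber (adjusted p = 0.00038), -1.14 in experiment 1 (adjusted p = 2.5e-06), and in experiment 2 it fell by 1.00 (adjusted p = 1.4e-05). The mean change was -0.96 ± 0.08 (adjusted p = 3e-09), a factor of 1.94.

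Its partner Myo5a, by probe set 98968_at, read 5.68 and 5.68 in the chamber controls against 5.29, 5.78 and 5.73, 5.92 and 5.85 against 5.85, 5.85 and 6.12 in experiment 1, and 5.67 and 5.85 against 5.61, 5.74 and 5.82 in experiment 2. The arrays overlapped in all 3 sets, and the mean change was -0.02 ± 0.12 (adjusted p = 0.93), with an interval from -0.27 to 0.23. Its other probe set, the dim 100672_at, gave -0.07 (adjusted p = 0.62). The motor gave no call at 1% oxygen where its linker Mlph did, and the difference between these genes was not itself tested.

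Some markers of other cell types were also called at 1% oxygen. For the hypoxia mean 11.2% of all probe sets were called higher and 16.8% lower, and the marker counts stand beside these shares. For the hypoxia mean 2 of 10 leukocyte markers rose, Cd68 by 0.84 (adjusted p = 1.9e-05, called in all 3 sets) and Csf1r by 0.19 (adjusted p = 0.043). Of 11 keratinocyte markers 1 rose, Cdh1 by 0.21 (adjusted p = 0.024), of 10 fibroblast markers Pdpn alone fell by 0.43 (adjusted p = 0.00037), and of 8 endothelial markers Eng alone fell by 0.49 (adjusted p = 4.5e-06). Their part in the falls of Gpr143 and Mlph was not tested.

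The hypoxia response of the 8 genes was also set between devices and between the incubator experiments. Of the 12 probe sets, 0 differed between chamber and incubator by limma, beside 1.20% of all probe sets, and 1 did so at an unadjusted p under 0.05. That was Mlph, whose fall was smaller in the chamber by 0.34 (unadjusted p = 0.044, adjusted p = 0.26). Between experiments 1 and 2, 0 of 12 differed, beside 0.203% of all probe sets, and 0 did so at an unadjusted p under 0.05. For Gpr143 the difference between chamber and incubator was -0.11 ± 0.17, with an interval from -0.46 to 0.23. Device and set cannot be told apart for the chamber.

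**Figure D2:**
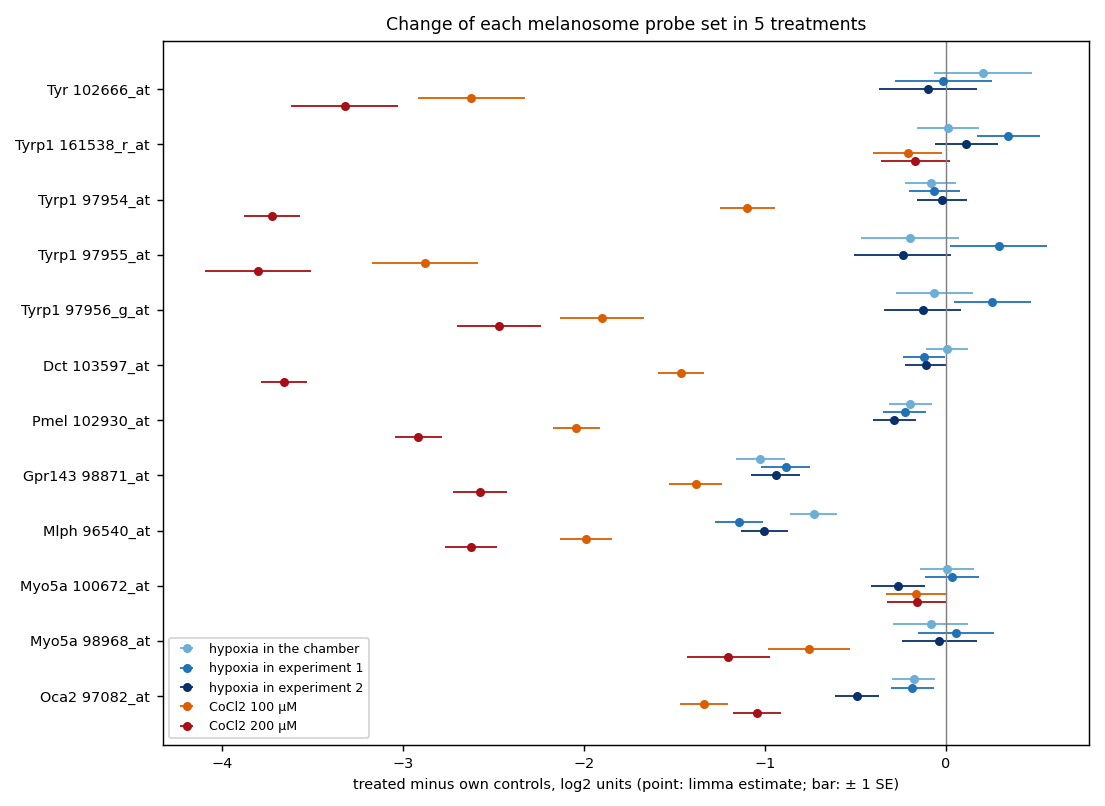
Treated minus own control mean (horizontal axis, log2 units) of each of the 12 probe sets in the 5 treatments; points are limma estimates and bars 1 standard error. The 3 hypoxia estimates (blue) lie around 0 for Tyr, Tyrp1, Dct and Myo5a. They lie between -0.49 and -0.18 for Pmel and Oca2 and between -1.14 and -0.73 for Gpr143 and Mlph. Both CoCl2 estimates (orange and red) lie below all 3 hypoxia estimates for every probe set but Myo5a 100672_at.

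The CoCl2 comparison asked whether the chemical mimic moved the same genes. At 100 µM 10 of the 12 probe sets fell and none rose, beside 18.0% of all probe sets lower and 16.3% higher. At 200 µM 10 fell and none rose, beside 19.7% lower and 18.2% higher. The median of the 12 was -1.42 at 100 µM and -2.60 at 200 µM, against 0.11 and 0.12 for all probe sets, and 0 of 12 rose at an unadjusted p under 0.05 at either dose. Both doses were set against the same 2 control arrays. Tyrp1 161538_r_at (1.75 to 2.83 over the 21 arrays) and Myo5a 100672_at (1.95 to 2.63) did not pass, and both read near the bottom of the deposited range, which began at 1.37. Tyrp1 161538_r_at was called lower at 100 µM only without the second array of that dose (-0.51, adjusted p = 0.045).

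Values that moved with CoCl2 stand beside these counts. Actb and Gapdh 3′ to 5′ differences were larger in the experiment 3 controls and at 100 µM than in the hypoxia sets, as given above, and with the Actb difference of each array as a covariate 9 of 12 were called lower at 100 µM and 10 of 12 at 200 µM. Beside the marker counts that follow, 16.3% of all probe sets were called higher and 18.0% lower at 100 µM. At 200 µM these shares were 18.2% and 19.7%. The mean level of 10 leukocyte markers was 4.48 to 4.71 in controls, 4.64 to 4.94 at 1% oxygen and 4.96 to 5.22 with CoCl2. Of these 10 markers 3 were called higher at 100 µM (Cd68, Cd79a and Cd3e) and 2 at 200 µM (Cd68 and Csf1r). The mean level includes Cd68, and Ptprc, Itgam, Lyz2, Adgre1, Cd14 and Tyrobp were called at neither dose. Cd68, a lysosomal protein that other cells also make, rose by 2.50 and 3.98, more than at 1% oxygen (difference 2.40, adjusted p = 2.5e-07). Of 11 keratinocyte markers (4.42 to 4.77 in controls, 4.58 to 4.81 at 1% oxygen, 4.75 to 4.83 with CoCl2), 5 rose at each dose. Of 10 fibroblast markers (4.75 to 5.0, 4.85 to 5.02 and 4.83 to 5.12 in the same order), 2 fell at each dose and 3 rose at 200 µM. Of 8 endothelial markers (5.12 to 5.33, 5.09 to 5.31 and 5.07 to 5.32), 1 rose and 1 fell at 100 µM, and 1 fell at 200 µM. These arrays give no zero level and no detection calls were used, and the part of these markers and of RNA integrity in the fall of the melanosome genes was not tested.

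Tyr read 7.85 and 7.63 in the experiment 3 controls, 4.60 and 5.63 at 100 µM and 4.71 and 4.13 at 200 µM. All 4 CoCl2 arrays were far below both controls, and the arrays of the doses overlapped. The change was -2.62 ± 0.30 at 100 µM (adjusted p = 6.9e-07) and -3.32 ± 0.30 at 200 µM (adjusted p = 1.5e-08), the latter a factor of 10.0.

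Dct read 11.94 and 11.81 in the controls, 10.30 and 10.51 at 100 µM and 8.43 and 8.00 at 200 µM. The 3 groups were fully apart, each dose below the one before. The change was -1.47 ± 0.13 at 100 µM (adjusted p = 1.7e-08) and -3.66 ± 0.13 at 200 µM (adjusted p = 4.3e-14), a factor of 12.6 at the higher dose.

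Tyrp1 97954_at followed the same steps, with 11.42 and 11.31 in the controls, 10.16 and 10.38 at 100 µM and 7.85 and 7.44 at 200 µM. It changed by -1.10 ± 0.15 at 100 µM (adjusted p = 1.1e-05) and by -3.72 ± 0.15 at 200 µM (adjusted p = 2.2e-13), a factor of 13.2. Its other probe sets put most of the fall at the lower dose. Tyrp1 97955_at read 8.92 and 9.14 in the controls, 5.93 and 6.37 at 100 µM and 4.66 and 5.79 at 200 µM. Tyrp1 97956_g_at read 8.91 and 9.71, 7.47 and 7.34, and 6.72 and 6.95. Their changes were -2.88 ± 0.29 and -1.90 ± 0.23 at 100 µM (adjusted p = 1.8e-07 and 2e-06) and -3.80 and -2.47 at 200 µM (adjusted p = 1.7e-09 and 3.1e-08). The direction at both doses was the same by all 3, and the share of the fall reached at 100 µM depended on the probe set.

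**Figure D3:**
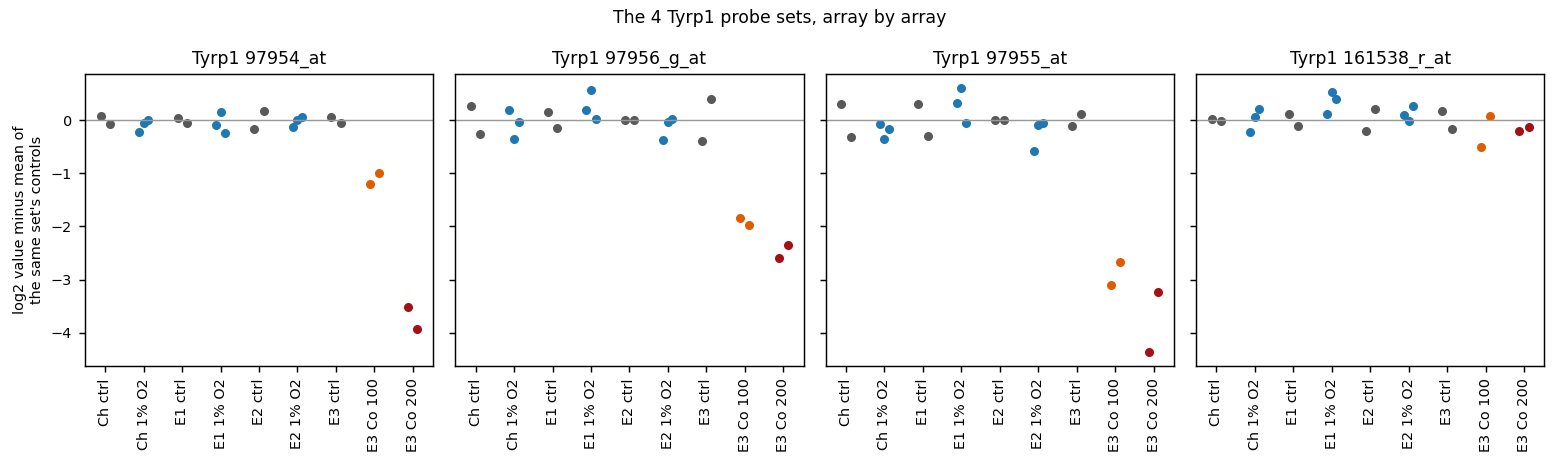
The 4 Tyrp1 probe sets on each of the 21 arrays, as log2 value minus the mean of the same set's controls (vertical axis), with groups and colours as in the plot of the 8 genes by array. The 100 µM arrays average -1.10 by 97954_at and -2.88 by 97955_at, the 200 µM arrays lie below -2 by both and by 97956_g_at, and the dim 161538_r_at was not called at either dose.

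Pmel read 12.26 and 12.27 in the controls, 10.10 and 10.34 at 100 µM and 9.10 and 9.60 at 200 µM. Each dose was below the one before with no overlap. The changes were -2.04 ± 0.13 (adjusted p = 1.6e-10) and -2.92 ± 0.13 (adjusted p = 6.6e-13), the latter a factor of 7.55.

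Gpr143 read 7.81 and 7.18 in the controls, 6.06 and 6.16 at 100 µM and 4.98 and 4.85 at 200 µM. The controls stood further apart than in any hypoxia set, and all CoCl2 arrays were below both. Its changes were -1.38 ± 0.15 (adjusted p = 3.5e-07) and -2.57 ± 0.15 (adjusted p = 2.2e-11), the latter a factor of 5.96.

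Mlph read 8.18 and 7.95 in the controls, 6.07 and 6.09 at 100 µM and 5.43 and 5.45 at 200 µM, with the replicates of each dose almost level. Mlph changed by -1.99 ± 0.14 (adjusted p = 1e-09) and -2.63 ± 0.14 (adjusted p = 1.1e-11), the latter a factor of 6.17.

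Oca2 read 6.58 and 6.70 in the controls, 5.21 and 5.40 at 100 µM and 5.80 and 5.39 at 200 µM. All CoCl2 arrays were below the controls, but the higher dose was not the lower value. Oca2 changed by -1.34 ± 0.13 (adjusted p = 1.1e-07) and -1.04 ± 0.13 (adjusted p = 2e-06), the latter a factor of 2.06.

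Myo5a 98968_at read 6.50 and 6.30 in the controls, 5.09 and 6.21 at 100 µM and 5.16 and 5.24 at 200 µM. At 100 µM its arrays disagreed, 1 at the level of the higher dose and the other just under the lower control. The change was -1.20 ± 0.23 at 200 µM (adjusted p = 0.00026) and -0.76 ± 0.23 at 100 µM (adjusted p = 0.015). The 100 µM call was lost without the first 100 µM array (-0.20, adjusted p = 0.51), without the first control (-0.65, adjusted p = 0.12), with array weights (adjusted p = 0.053), with only the experiment 3 arrays (adjusted p = 0.15) and with the Actb covariate (-0.51, adjusted p = 0.31).

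The step from 100 to 200 µM, which needs no control array, was set apart. Here 6 of the 12 fell and none rose, beside 7.54% of all probe sets lower and 6.83% higher, and 1 member, Oca2, was higher at an unadjusted p under 0.05 (0.29, adjusted p = 0.16). The median step was -0.67, against -0.01 for all probe sets. The step was -2.63 ± 0.15 for Tyrp1 97954_at (adjusted p = 9.3e-10) and -2.19 ± 0.13 for Dct (adjusted p = 9.3e-10). Gpr143 took a step of -1.19 ± 0.15 (adjusted p = 1.8e-05), Pmel of -0.87 (adjusted p = 0.00013), Mlph of -0.64 (adjusted p = 0.0046) and Tyrp1 97955_at of -0.92 (adjusted p = 0.039). Tyr (-0.70, adjusted p = 0.13), Tyrp1 97956_g_at (-0.57, adjusted p = 0.12) and Myo5a 98968_at (-0.45, adjusted p = 0.23) did not pass.

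Only Tyrp1 97954_at, Dct and Gpr143 kept the step under every alternative setting tried. The Pmel call was lost with only the experiment 3 arrays (adjusted p = 0.079). That of Mlph was lost with those arrays alone (adjusted p = 0.10), with array weights (adjusted p = 0.20) and with the Actb covariate (adjusted p = 0.28). That of Tyrp1 97955_at was lost in 5 settings, among them without the first 200 µM array (-0.36, adjusted p = 0.47) and without the second 100 µM array (adjusted p = 0.16). With the Actb covariate the step grew to -2.47 for Tyrp1 97955_at and to -1.49 for Pmel. Conversely, without the first 100 µM array the step of Tyr was -1.22 (adjusted p = 0.0091) and that of Myo5a -1.01 (adjusted p = 0.00049), and without the second 200 µM array the step of Oca2 was 0.50 (adjusted p = 0.038).

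The difference between the treatments was tested as the mean CoCl2 change minus the mean hypoxia change. It was lower for 10 of the 12 probe sets and higher for none, beside 13.8% of all probe sets lower and 8.02% higher, with a median of -1.78 against 0.10. Among the enzymes Tyr differed by -3.00 ± 0.30 (adjusted p = 2.2e-07), Dct by -2.49 ± 0.13 (adjusted p = 1.3e-11) and Tyrp1 97954_at by -2.35 ± 0.16 (adjusted p = 4.3e-10). Pmel differed by -2.24 ± 0.13 (adjusted p = 7.8e-11). Mlph and Gpr143, which fell in both treatments, were still lower with CoCl2, by -1.35 ± 0.15 (adjusted p = 6.3e-07) and -1.03 ± 0.15 (adjusted p = 3.4e-05). Myo5a 98968_at differed by -0.96 (adjusted p = 0.0047) and Oca2 by -0.90 (adjusted p = 3.9e-05), and the Myo5a difference was lost without the first control of experiment 3 (adjusted p = 0.061). CoCl2 was used in experiment 3 only, so treatment and experiment cannot be told apart beyond each one's own controls.

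Untreated cells also differed between the sets. By limma's F test over the 4 control groups, 3 of the 12 probe sets differed, beside 27.4% of all probe sets. The count is close to that share, so it does not set these genes apart. Mlph control means spanned 0.79 (adjusted p = 0.0003), higher in the chamber and experiment 2 sets (8.66 to 8.84) than in experiments 1 and 3 (7.95 to 8.18), with no overlap. Tyrp1 97955_at spanned 1.29 (adjusted p = 0.0096) and 97956_g_at 1.34 (adjusted p = 0.001), both lowest in experiment 3. By 97954_at the experiment 3 controls were instead the highest mean of the 4, over a span of 0.47 (adjusted p = 0.050, not called), so the Tyrp1 probe sets disagreed on the order of the untreated cells. The 97954_at difference was called under other settings, among them median centring (adjusted p = 0.03), quantile normalisation (adjusted p = 0.03) and array weights (adjusted p = 0.0046). The calls of 97955_at and 97956_g_at were lost with the Actb covariate (adjusted p = 0.27 and 0.36) and without the first control of experiment 3 (adjusted p = 0.11 and 0.069). Tyr (0.58, adjusted p = 0.39), Dct (0.24, adjusted p = 0.41), Pmel (0.31, adjusted p = 0.22), Gpr143 (0.25, adjusted p = 0.55), Oca2 (0.42, adjusted p = 0.089) and Myo5a 98968_at (0.72, adjusted p = 0.069) did not pass.

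Other genes of melanosome building, sorting and pigment supply were read from a list of 44, of which 20 were measured, each through its brightest probe set. For the hypoxia mean 3 rose and 1 fell, beside 11.2% higher and 16.8% lower of all probe sets. The median was 0.03 against 0.01 for all genes. Atp7a, the copper pump that supplies tyrosinase, rose by 0.66 (adjusted p = 2.7e-07), and by its other probe set 0.73. Rab9, a small GTPase of late endosomes, rose by 0.39 (adjusted p = 0.0011), with 0.05 in the chamber (adjusted p = 0.82) and 0.56 and 0.55 in experiments 1 and 2. Ap3b1, a subunit of the sorting adaptor AP-3, rose by 0.27 (adjusted p = 0.001), with 0.18 in the chamber (adjusted p = 0.22) and 0.29 and 0.32 in the incubator. Hps4, a subunit of the BLOC-3 complex, fell by 0.44 (adjusted p = 7.8e-06), with -0.14 in the chamber (adjusted p = 0.39), -0.85 in experiment 1 and -0.33 in experiment 2. Atp7a was called higher in each of the 3 sets.

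At 200 µM CoCl2 2 of these 20 rose and 5 fell, beside 18.2% higher and 19.7% lower of all probe sets. The median at that dose was -0.17 against 0.11. At 100 µM 3 rose and 3 fell, beside 16.3% higher and 18.0% lower. Slc7a11, the cystine transporter that also feeds pheomelanin synthesis, rose by 1.53 (adjusted p = 1.9e-06). Myo7a, a myosin that positions melanosomes in the retinal pigment epithelium, fell by 1.21 (adjusted p = 1.7e-07), and Ap3d1, another AP-3 subunit, by 0.86 (adjusted p = 1.5e-05). Adam10, a protease that can cleave Pmel, fell by 0.73 by its brighter probe set (adjusted p = 0.021) and gave 0.26 by the other (adjusted p = 0.31). Atp7a, which rose at 1% oxygen, fell by 0.41 at 200 µM (adjusted p = 0.02 by limma) and by 0.75 by its other probe set (adjusted p = 0.00071).

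Of 13 lineage regulators, 11 were measured. For the hypoxia mean 4 rose and 2 fell, beside 11.2% higher and 16.8% lower of all probe sets, with a median of 0.02 against 0.01 for all genes. At 100 µM CoCl2 2 rose and 4 fell (median -0.24 against 0.10), beside 16.3% higher and 18.0% lower of all probe sets. At 200 µM 1 rose and 6 fell (median -0.40 against 0.11), beside 18.2% higher and 19.7% lower of all probe sets. Mitf rose by 0.89 at 1% oxygen (adjusted p = 2e-08) and fell by 2.01 at 200 µM (adjusted p = 1.2e-09). Mc1r, the melanocortin receptor, fell by 1.42 at 200 µM (adjusted p = 2.8e-08), and Sox10, another factor of the lineage, by 1.19 (adjusted p = 5.7e-07; by its other probe set -0.48, adjusted p = 0.039). Tfap2a rose by 0.51 at 1% oxygen (by its other probe set 0.59) and fell by 1.00 at 200 µM (by the other -0.54, adjusted p = 0.0042). Snai2 (0.56) and Pax3 (0.43) rose for the hypoxia mean, while Mc1r (-0.25, adjusted p = 0.01 by limma) and Kit (-0.22, adjusted p = 0.018) fell. Mc1r was called lower in experiment 1 (-0.82, adjusted p = 6e-05) but not in the chamber (0.03) or experiment 2 (0.05). Sox10 was also called lower in experiment 1 (-0.67, adjusted p = 0.00066) but not in the chamber (-0.06), in experiment 2 (0.17) or for the mean (-0.19). In experiment 1 neither Pax3 (0.33, adjusted p = 0.072 by limma) nor Tfap2a (0.21, adjusted p = 0.38) was called. At 200 µM Pax3 fell by 0.86 (adjusted p = 2.4e-05) and Snai2 was not called (-0.12, adjusted p = 0.47).

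**Figure D4:**
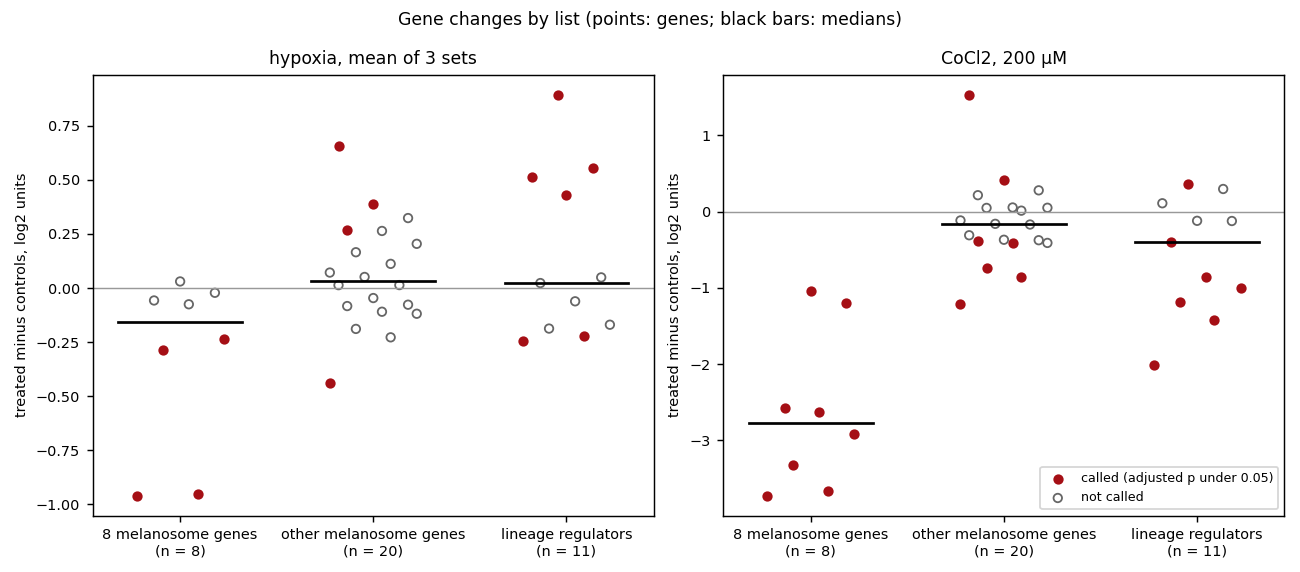
Change of each gene (points, brightest probe set; filled where called) in the 8 melanosome genes, the 20 other melanosome genes and the 11 lineage regulators, with list medians as bars; the vertical axes give treated minus control in log2 units for the mean of the 3 hypoxia sets (left) and 200 µM CoCl2 (right). At 200 µM all 8 melanosome genes are called lower, while the other melanosome genes lie on both sides of 0.

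Genes whose pattern was most like each member were found by Pearson correlation over the 21 arrays, after the control mean of each set was taken off. The 4 CoCl2 arrays dominate this measure, and arrays of a group share their treatment, so it is a description. Gpr143 was nearest to Car14, a membrane carbonic anhydrase (r = 0.970), which changed by -1.04 for the hypoxia mean and by -1.56 and -2.52 at the CoCl2 doses, and next to Cdc123 (0.967). Mlph was nearest to Amotl2 (0.984) and Limch1 (0.982), the latter at -1.42, -3.28 and -4.11 in the same order. Dct and Tyrp1 97954_at shared Glrb (0.982 and 0.975), at -0.16, -1.38 and -2.87, and their other neighbours were Rac1 for Dct (0.977) and Cadm1 for Tyrp1 (0.973). Tyr was nearest to Fkbp9 (0.980) and Stx7 (0.975), and Pmel to Sptssa and Cdk2 (both 0.983). Myo5a was nearest to Cbfa2t2 (0.960) and Evl (0.951), and Oca2 to Adam12 (0.941) and Mcm3 (0.940).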

How the data were processed

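The deposited table holds log2 values, 1 per probe set and array, from GCOS 1.2 and RMA per the submitters' processing notes; not given in the sources used here were the RMA version, the probe definition and whether all arrays were processed together. They were used without rescaling. Of 12488 probe sets 66 were Affymetrix controls, 11251 had a gene annotation, 396 of them named several genes and were left out, and 10833 named 1 gene, of which 10817 were matched to a current symbol. No detection calls were used. Controls whose titles name no experiment were taken as the chamber set's, since its hypoxia titles name none either.

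limma 3.58.1 in R 4.3.3 fitted 1 mean per group to all 21 arrays (12 residual degrees of freedom), with two-sided tests adjusted by Benjamini-Hochberg over 10833 probe sets; errors are standard errors. Every probe set of the 8 genes is named, and of the other lists the 4 genes with the largest called change for the hypoxia mean and at 200 µM CoCl2, and the 2 genes most correlated with each member. Kit is named as well, since it fell for the hypoxia mean. The members and lists were chosen with earlier results of these data known. The script was tested on simulated data. Alternatives were median centring, quantile normalisation, a filter at the 40th percentile of mean signal, 1 probe set per gene, robust moderation with a variance trend, array weights, only the arrays compared, the replicate number as a block, the Actb 3′ to 5′ difference as a covariate and leaving out each array. Promoter sequences are from RefSeq (GRCm38.p6).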

Additional observations from a re-analysis of the deposited data

How the results depend on the processing

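Over the alternatives, 2262 values of single probe sets were recomputed. In 2119 the direction and the side of the threshold stayed, 21 calls were gained, 22 were lost, 100 values that were not called changed sign, and no called value reversed. All 10 calls at 200 µM CoCl2 and the Gpr143 and Mlph calls in each hypoxia set were kept under every alternative, leaving out each array of those comparisons included, and so were 9 of 10 calls at 100 µM. The dose step gave 3 calls in place of 6 with only the arrays compared. The test between controls gave 6 calls in place of 3 with array weights, 6 with only the arrays compared and 1 with the Actb covariate, and 1 to 4 when an array was left out; the cause was not tested. Same-numbered arrays deviated with correlations from -0.35 to 0.32 over 6 pairs of groups (9 distinct values, since groups of 2 mirror each other). Both were positive in experiment 2 (0.32 and 0.10), but not all pairs exceeded 0.1, so the numbers were not taken to pair the samples. With the replicate block, counts were 2 in the chamber, 2 in experiment 1, 2 in experiment 2, 10 at each CoCl2 dose, 6 for the dose step, 3 for the hypoxia mean and 10 between CoCl2 and hypoxia, and crossing the numbers of the 100 µM arrays, chosen after seeing the data, gave 10 at that dose. The test between controls could not be fitted with the block, and the comparison of CoCl2 with hypoxia uses all arrays. The filter left 10 and 1 probe set per gene left 8 of the 12. Scaling moved the median of all probe sets by less than 0.1. Values near the bottom of the range bound what Tyrp1 161538_r_at and Myo5a 100672_at can show.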

Other observations

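The protein-coding genes that flank the 8 melanosome genes in the RefSeq gene table (GRCm38.p6) were read after their neighbours' values had been seen. Of 16 such genes 8 were measured. Their calls stand beside 16.8% of all probe sets called lower and 11.2% higher for the hypoxia mean. At 100 µM CoCl2 these shares were 18.0% and 16.3%, and at 200 µM 19.7% and 18.2%. Cdk2, a cell cycle kinase whose gene lies beside Pmel on chromosome 10, read 9.53 and 9.57 in the experiment 3 controls, 6.63 and 7.31 at 100 µM and 6.27 and 6.31 at 200 µM CoCl2. It fell by 2.58 ± 0.16 (limma, adjusted p = 1.1e-10) and 3.26 ± 0.16 (adjusted p = 2.2e-12), and by 0.30 for the hypoxia mean (adjusted p = 0.011). Dgka, on the other side of Pmel, did not pass (0.37, adjusted p = 0.057, and -0.05, adjusted p = 0.81, at the doses). Tgds, beside Dct, fell by 1.03 and 1.23, and Arpp19, beside Myo5a, by 0.60 and 1.20. For the hypoxia mean Tgds fell by 0.17 (adjusted p = 0.048) and Arpp19 fell by 0.19 (adjusted p = 0.037), and the other 5 measured neighbours did not pass. Ptprd, beside Tyrp1, fell by 0.45 and 0.47. Col6a3, beside Mlph, rose by 0.37 at 100 µM (adjusted p = 0.043) and gave 0.26 at 200 µM (adjusted p = 0.14). Herc2, beside Oca2, gave -0.12 (adjusted p = 0.54) and rose by 0.46 (adjusted p = 0.018), and Gabrg3, on the other side, did not pass (0.35 and 0.21).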
